A study of Mus musculus with 4 samples.

Results

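Neutrophils enter skin along gradients of CXC chemokines, and the genes described here are the 3 neutrophil-attracting ligands chosen from the Xenium panel, Cxcl1, Cxcl3 and Cxcl5, with their receptor gene Cxcr2. They were chosen by name, as 4 of the 328 genes read in place on every slide, and only transcripts read with a quality score of 20 or more were counted in each cell. The data covered 17 sections on 4 slides: 3 sections of male unwounded dorsal skin, 4 of female unwounded dorsal skin, 7 of buccal mucosa and 3 of male dorsal skin at postoperative day 4 after wounding. The mice were Tet-On transgenic littermates (TRE-Pitx1/Krt5-rtTA), in which doxycycline lets the keratin 5 promoter, active in basal keratinocytes, switch on Pitx1. PITX1+ mice received doxycycline in their chow and Control mice normal chow, labelled vehicle, and the buccal mucosa came from Control mice on vehicle. The label of each skin slide gives both conditions, so a section was taken as Control or PITX1+ from its place on the slide. On that basis there were 3 Control sections (1 male, 2 female), 4 PITX1+ sections (2 male, 2 female), 7 buccal sections, 1 Control wound and 2 PITX1+ wounds. The study counts as many skins, mice and mucosae as there were sections, but the labels tie no section to a mouse, so p-values over sections are taken to measure the spread between sections.

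CXCL1, CXCL3 and CXCL5 are secreted ligands that share the ELR motif before their CXC cysteines, and all 3 bind CXCR2, a G protein-coupled receptor carried by neutrophils and some other cells. Keratinocytes, fibroblasts, macrophages and endothelial cells can make the ligands after interleukin-1, interleukin-17 or tumor necrosis factor reaches them, in part through NF-kappaB. Neutrophils read the gradient with CXCR2, leave the vessel and enter the tissue, where they can release chemokines of their own.

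On GRCm38.p6 the 3 ligand genes lay close together on the plus strand of chromosome 5. RefSeq placed Cxcl5 at chr5:90759298-90761625, Cxcl3 at chr5:90786101-90788093 and Cxcl1 at chr5:90891245-90893121, while Cxcr2 lay at chr1:74153994-74161246. The 250 bases before the start of Cxcl3 (chr5:90785851-90786100) and of Cxcl1 (chr5:90890995-90891244) are shown because the 2 genes had different main source cells in the PITX1+ wounds. Capitals mark the longest run of letters that the 2 windows share on the same strand, which is 11 bases long and has the form of an NF-kappaB motif.

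Cxcl3: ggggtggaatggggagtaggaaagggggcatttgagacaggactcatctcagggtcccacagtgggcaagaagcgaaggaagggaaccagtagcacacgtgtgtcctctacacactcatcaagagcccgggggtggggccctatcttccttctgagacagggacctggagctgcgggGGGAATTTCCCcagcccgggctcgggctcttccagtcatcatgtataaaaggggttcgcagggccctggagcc
Cxcl1: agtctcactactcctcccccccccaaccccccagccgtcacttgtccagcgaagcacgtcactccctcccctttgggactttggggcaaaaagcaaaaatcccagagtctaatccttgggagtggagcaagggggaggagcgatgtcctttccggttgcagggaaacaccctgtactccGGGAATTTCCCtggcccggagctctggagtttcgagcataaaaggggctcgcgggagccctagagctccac

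The run, GGGAATTTCCC, began at position -73 from the start of Cxcl3 and at -71 from that of Cxcl1. It was then searched on both strands (GGGAAATTCCC on the other) in 32817 RefSeq promoters of the same length, of which 14 held it (0.0427%). The Cxcr2 promoter (chr1:74153744-74153993) had no match, and Cxcl5 had no entry in the sequence table. A match of letters is a description of the sequence and does not show binding.

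The transcript sums per section checked the labels and the depth. Cells with at least 10 transcripts were kept, and each level is a gene's count per 1000000 panel transcripts of the kept cells (CPM). Kept transcripts numbered 446626 to 733476 in the Control sections, 2809657 to 5560941 in PITX1+ skin, 134076 to 2367327 in buccal mucosa and 1581272 to 5368511 in the wounds, and between 1 and 7 cell names were shared by any pair of slides. The level of Pitx1 in keratinocyte-like cells was 13.9 CPM in the male Control section and 1065 and 872 CPM in the male PITX1+ sections, but 58.5 and 53.5 CPM in the female Control sections against 44.5 and 79.6 CPM in the female PITX1+ sections. The Pitx1 difference was thus seen on the male slide (log2 fold change 5.32, adjusted p = 0.0131, edgeR) and not on the female slide (-0.11, adjusted p = 0.844, edgeR), and Pitx1 does not tell the female conditions apart. The female cell numbers lay 0.0856% to 0.335% from a total listed for their own condition and 32.1% to 299% from the nearest total of the other condition, and S100a8 stood at 106 and 122 CPM in the female Control sections and at 1311 and 543 CPM in the female PITX1+ sections. S100a8 is also tested between the conditions below, so its levels are no independent check of the conditions. In the edgeR fit the single male Control section was taken to vary like the sections of the other groups. In the wounds Pitx1 stood at 51.3 CPM in the Control section and at 637 and 324 CPM in the PITX1+ sections.

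Cxcl1, the ligand with the highest level in PITX1+ unwounded skin, was read at 76.1 CPM in the male Control section and at 203 and 164 CPM in the female Control sections. In PITX1+ skin it stood at 1229 and 112 CPM in the male sections and at 1350 and 386 CPM in the female sections. Of the male PITX1+ sections the first was high and the second lay between the Control values, while both female PITX1+ sections lay above every Control section. The share of cells with at least 1 Cxcl1 transcript was 0.244%, 0.848% and 0.645% in the Control sections, and 4.75% and 0.839% in the male and 5.26% and 2.06% in the female PITX1+ sections. Buccal sections ran from 23.8 to 201 CPM (median 41.5 CPM, n = 7), below all Control values in most sections. The group means were 148 ± 65.0 CPM in Control skin (SD, n = 3), 769 ± 613 CPM in PITX1+ skin (SD, n = 4) and 62.3 ± 62.4 CPM in buccal mucosa (SD, n = 7).

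Cxcl3 and Cxcl5 were low in unwounded skin of either condition. Cxcl3 was read at 69.4, 150 and 120 CPM in the Control sections and at 50.2, 18.9, 181 and 96.7 CPM in the PITX1+ sections, so the groups overlapped. Cxcl5 was read at 15.7, 185 and 124 CPM in the Control sections and at 88.6, 9.46, 268 and 110 CPM in the PITX1+ sections, which overlapped as well. For both genes the female sections were the higher ones within each condition. In buccal mucosa Cxcl3 ran from 1.20 to 127 CPM (median 6.30 CPM, n = 7) and Cxcl5 from 7.23 to 104 CPM (median 33.6 CPM, n = 7).

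Cxcr2, the receptor gene, stood at 47.0, 166 and 103 CPM in the Control sections and at 96.1, 42.7, 211 and 126 CPM in the PITX1+ sections. Buccal mucosa gave 22.4 to 120.4 CPM (median 59.7 CPM, n = 7), a range that overlapped both skin groups. Probes against sequences absent from the tissue set the background of these values. The highest of the 20 negative control probes reached 208, 241 and 315 CPM in the Control sections, above each member there, and between 1 and 5 of the 20 were at or above a given member. In the female PITX1+ sections and the wounds none of the 20 was. In the second male PITX1+ section 1, 2 and 1 of the 20 were at or above Cxcl3, Cxcl5 and Cxcr2. In the first, 1 was at or above Cxcl3. The low levels of Control skin therefore could not be separated from background at this depth. Neither could those of these 3 genes in the second male PITX1+ section, nor that of Cxcl3 in the first. A fold change against the Control levels is limited by that background.

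Cxcl3, Cxcl5 and Cxcr2 were higher in each of the 3 wounds than in any unwounded section, whereas for Cxcl1 the Control wound lay below 2 of the PITX1+ sections. Cxcl3 was the most abundant ligand transcript in the Control wound, with 2832 CPM (95% counting interval 2750 to 2916) against 69.4 CPM in the male Control section. The Control wound had 574 CPM of Cxcl1, 954 CPM of Cxcl5 and 1030 CPM of Cxcr2, above its highest negative control probe at 256 CPM. The male Control section had 76.1, 15.7 and 47.0 CPM, below its highest probe at 208 CPM, so no ratio is given, and wound and slide cannot be told apart in the difference.

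**Figure D1:**
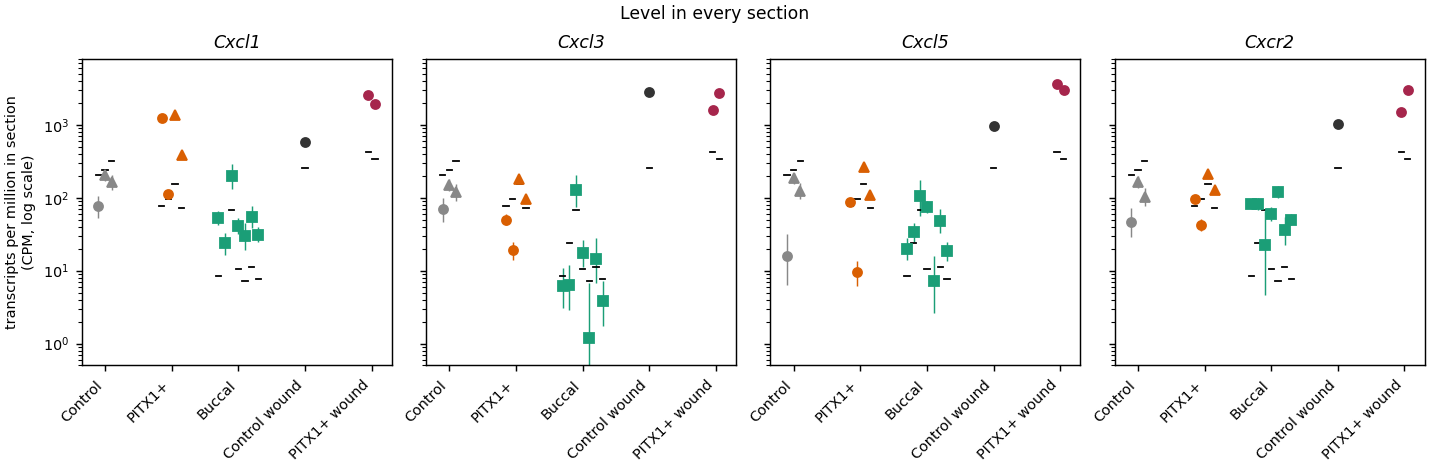
Level of Cxcl1, Cxcl3, Cxcl5 and Cxcr2 in each section, in CPM on a log axis, with 95% counting intervals as bars and the highest negative control probe of each section as a short black line; circles are male skin or wounds, triangles female skin and squares buccal mucosa. Cxcl1 in PITX1+ skin spreads from 112 to 1350 CPM, and the wounds lie above all unwounded sections for Cxcl3, Cxcl5 and Cxcr2.

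Whether PITX1+ skin carried more of the chemokines than Control skin was tested over sections with the slide as a term. Cxcl1 was 5.46-fold higher (log2 fold change 2.45 ± 0.828 SE, 3 against 4 sections), which did not pass after adjustment over all genes (adjusted p = 0.0761, edgeR). Of all genes, 20.4% passed in this comparison, and 0 of the 4 members did by edgeR, with Cxcl1 alone below an unadjusted p of 0.05. DESeq2, which called 30.5% of genes, called 1 of the 4, Cxcl1 (log2 fold change 2.41, adjusted p = 0.0024), as did edgeR without the second male PITX1+ section (2.73, adjusted p = 0.0144; 25.3% of genes passed). With each section left out in turn the value ranged from 1.70, without the first male PITX1+ section, to 2.93, and without any section other than the second male one edgeR did not call it (adjusted p = 0.100 to 0.226). The log2 fold changes of the others were -0.50 for Cxcl3 (adjusted p = 0.485, edgeR), 0.60 for Cxcl5 (adjusted p = 0.591, edgeR) and 0.30 for Cxcr2 (adjusted p = 0.614, edgeR). The call for Cxcl1 thus depended on 1 section and on the tool, while its direction was upward with each of them.

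Within the slides the Cxcl1 difference had the same direction, in a fit where the spread came from the 3 groups with 2 sections and the lone male Control section was taken to vary like them. It was 2.75 on the log2 scale in male skin (adjusted p = 0.207, edgeR; 11.6% of genes passed) and 2.27 in female skin (adjusted p = 0.177, edgeR; 17.4% of genes passed). The female minus male difference of -0.49 did not pass either (adjusted p = 0.897, edgeR; 5.18% of genes passed), and none of the 4 members was called in any of the 3 tests, nor had an unadjusted p under 0.05. Cxcl3 was lower in male PITX1+ skin, at -1.38 (adjusted p = 0.196, edgeR), and level in female skin, at 0.07 (adjusted p = 0.92, edgeR), neither of which passed.

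Other genes of the pathway were followed in 4 lists, to be read against the 20.4% of all genes that passed with edgeR, the 30.5% called by DESeq2 and the 36.3% with an unadjusted p under 0.05. Among genes of neutrophils, 1 of 8 was higher and 0 lower in PITX1+ skin, with a median log2 fold change of 0.37 against -0.05 over the panel. That gene was S100a8, which codes for an antimicrobial calcium-binding protein of neutrophils and activated keratinocytes (9.04-fold, adjusted p = 0.00652, edgeR). Among other chemoattraction genes 1 of 7 was higher and 0 lower (median 0.17), namely the acute phase gene Saa3 (13.9-fold, adjusted p = 0.0498, edgeR). Saa3 stood at 8043 and 2149 CPM in the female PITX1+ sections but at 178 and 86.9 CPM in the male ones, against 47.0, 101 and 126 CPM in the Control sections. None of 9 inducers and brakes of the chemokines, a list with Il1b, Tnf and Il1rn, passed with edgeR (median 0.41), where 3 had an unadjusted p under 0.05 and DESeq2 called 3 (Cebpb, Il1f6 and Il1rn). None of 5 other CXC ligand and receptor genes passed with edgeR either (median -0.49), with 2 under an unadjusted p of 0.05 and 1, Ackr1, called by DESeq2. None of these shares lay more than slightly above that of all genes. S100a8 is also made by keratinocytes, so the neutrophil marker list was summed without it: it ranged from 1894 to 2783 CPM in Control skin and from 1856 to 4442 CPM in PITX1+ skin, with each of the 9 markers read more than 3 times in every section. Sums over all cells mix the number of cells with the level in them, so the lists were also counted within keratinocyte-like, fibroblast-like and immune-like cells, where 29.9%, 13.1% and 0.917% of all genes passed. There 1, 0 and 1 of the 8 neutrophil genes, 0, 1 and 1 of the 7 other chemoattraction genes and 1, 0 and 0 of the 9 inducers and brakes were higher, with 0 lower. Of the 5 CXC genes 1, 1 and 0 were lower and 0 higher.

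The source of Cxcl1 was read from cell classes built by clustering without the compared genes and named by markers with the ending -like. In the PITX1+ sections keratinocyte-like cells held most Cxcl1 transcripts, with shares of 85.6%, 69.2%, 51.1% and 54.0%. Their level was 1616, 162, 1034 and 356 CPM, against 62.4, 192 and 130 CPM in the Control sections. The difference in keratinocyte-like cells was 2.78 on the log2 scale (adjusted p = 0.0557, edgeR), in a comparison where 29.9% of genes passed and 0 of the 4 members did. DESeq2 called Cxcl1 there (2.73, adjusted p = 0.00103) beside 57.3% of all genes. So did edgeR without either male PITX1+ section (2.11, adjusted p = 0.0452 without the first, where 25.6% of genes passed, and 2.97, adjusted p = 0.0198 without the second, where 33.5% passed). Without each other section it was not called (adjusted p = 0.0814 to 0.152, edgeR), and the values ranged from 2.11 to 3.25.

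Fibroblast-like cells were the other large source. They carried Cxcl1 at 94.3, 166 and 122 CPM in Control skin and at 505, 69.5, 2672 and 475 CPM in PITX1+ skin, so that both female PITX1+ sections had more Cxcl1 per transcript in fibroblast-like than in keratinocyte-like cells and both male sections had less. The fibroblast-like difference was 2.38 (adjusted p = 0.124, edgeR), with 13.1% of genes and 0 of the 4 members called. DESeq2 called Cxcl1 (2.14, adjusted p = 0.0103) beside 16.8% of all genes, as did edgeR without the second male PITX1+ section (2.72, adjusted p = 0.00207; 15.2% of genes passed). Without each other section it was not called (adjusted p = 0.0767 to 0.383, edgeR), and the value was lowest, at 1.43, without the first female PITX1+ section and highest, at 3.09, without the male Control section. Macrophage-like cells of PITX1+ skin stood at 409, 56.7, 1569 and 371 CPM, the same order of sections as in fibroblast-like cells. In all immune-like cells together the Cxcl1 difference was 2.36 (adjusted p = 0.269, edgeR; 0.917% of genes and 0 of the 4 members called, with 2 members under an unadjusted p of 0.05 and 0 called by DESeq2, which called 7.95% of genes). Without the second male PITX1+ section Cxcl1 was called there as well (2.76, adjusted p = 0.0149, edgeR; 9.40% of genes passed). Without each other section it was not (adjusted p = 0.141 to 0.659, edgeR), with values from 1.75 without the first female PITX1+ section to 3.72 without the male Control section.

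The clusters followed here were chosen for the highest Cxcl1 levels in PITX1+ skin among the larger named clusters. Their high Cxcl1 follows from that choice, and what they describe is the spread by section. A fibroblast-like cluster led by Saa3, Mmp3, Tnc and Ptx3 was found, among the unwounded PITX1+ sections, almost only in the female ones, with 2826 and 863 cells against 16 and 0 in the male sections, and carried Cxcl1 at 8124 and 3707 CPM there. A keratinocyte-like cluster led by Sprr2d, Aldh1a3, Arg1 and Hbegf, genes of differentiating and activated epithelium, carried Cxcl1 at 9110 and 3935 CPM in the male sections and at 3610 and 3275 CPM in the female sections (503, 38, 1401 and 455 cells). A keratinocyte-like cluster led by Krt16, Areg, Crabp2 and Krt6a, keratins of activated epidermis among them, had Cxcl1 at 4447 and 1551 CPM in the male and at 2524 and 1412 CPM in the female sections (2015, 242, 3288 and 1813 cells). In that cluster Cxcl5 stood at 47.1 CPM over the 4 sections together, close to its highest negative control probe at 28.3 CPM. By section Cxcl5 was at 33.7, 0, 62.0 and 43.7 CPM there (9, 0, 26 and 10 transcripts).

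In squares of 100 µm a single square held up to 182 and 23 Cxcl1 transcripts in the male PITX1+ sections and up to 137 and 86 in the female ones, of 3454, 321, 4555 and 2146 in all. In the Control sections, with 34 to 149 Cxcl1 transcripts in all, a square held at most 4.

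**Figure D2:**
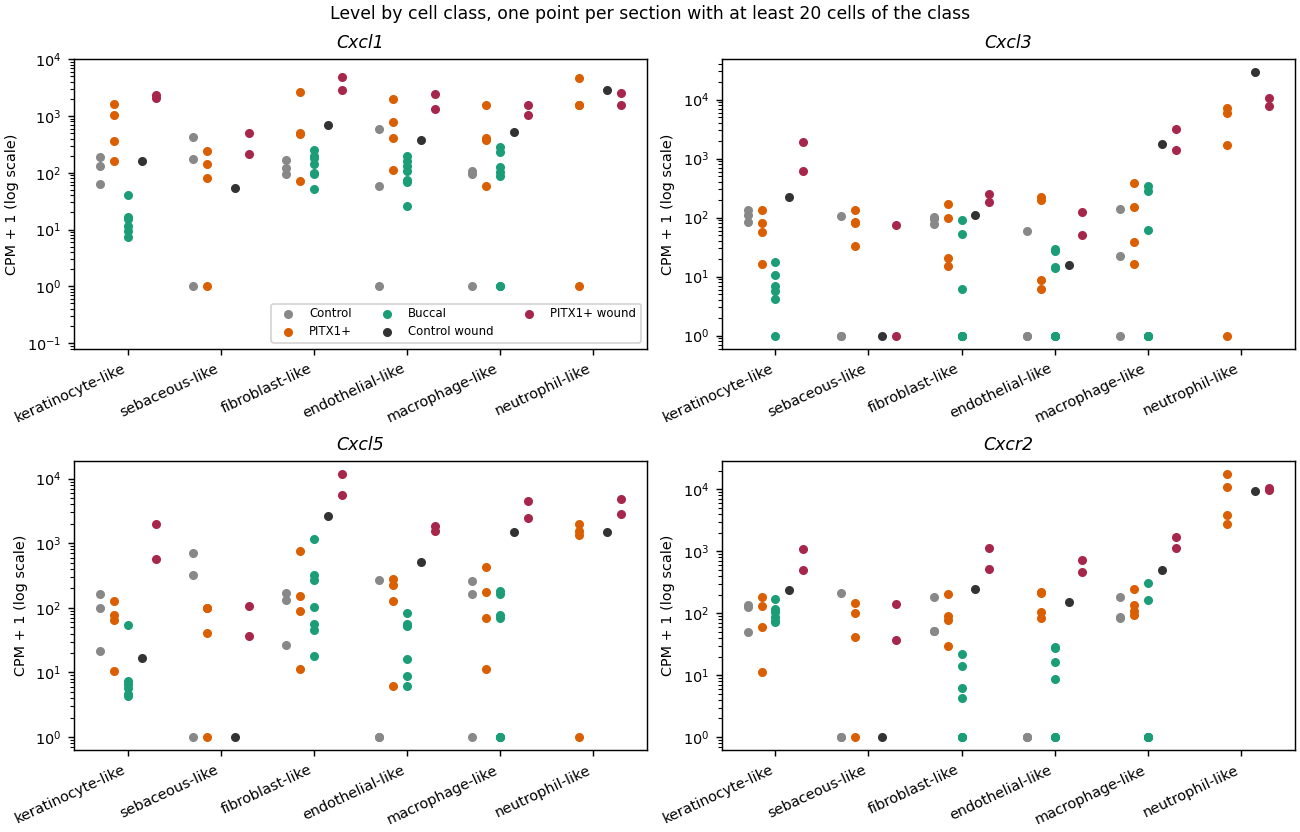
Level of each member by cell class, as CPM + 1 on a log axis, with 1 point for each section that held at least 20 cells of the class. Cxcl1 is highest in fibroblast-like cells in the PITX1+ wounds and in neutrophil-like cells in the Control wound, Cxcl3 and Cxcr2 are highest in neutrophil-like cells in the wounds, and buccal Cxcr2 has a median of 94.7 CPM in keratinocyte-like cells against 3.21 CPM in fibroblast-like cells.

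Neutrophil-like cells were rare in unwounded tissue. The Control sections held 7, 0 and 0 of them, the PITX1+ sections 169, 31, 190 and 69, and the buccal sections 0 to 4. In PITX1+ skin they carried Cxcr2 at 10857, 17822, 2709 and 3897 CPM, with the male sections highest, and they held 28.1%, 22.1%, 1.40% and 0.714% of its transcripts. Most Cxcr2 transcripts in PITX1+ skin of either sex therefore lay in cells not named as neutrophil-like, and nearly all did in female skin. On the female slide 77.1% of Cxcr2 transcripts lay over a nucleus, beside 79.1% of negative control probe calls and 42.7% of all gene transcripts. The share was 78.9% for Cxcl3, 71.5% for Cxcl5 and 56.2% for Cxcl1. The part of background calls in the female levels of Cxcr2, Cxcl3 and Cxcl5 was not tested.

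Buccal mucosa was compared with Control skin to ask how an oral lining carries these genes, and its keratinocyte-like cells held Pitx1 at 737 to 1261 CPM. Over all cells 38.4% of genes and 0 of the 4 members passed by edgeR, with Cxcl3 alone under an unadjusted p of 0.05 and 0 called by DESeq2, which called 48.5% of genes. The log2 fold changes were -0.93 for Cxcl1 (adjusted p = 0.168, edgeR), -2.26 for Cxcl3 (adjusted p = 0.0645, edgeR), -0.86 for Cxcl5 (adjusted p = 0.381, edgeR) and -0.03 for Cxcr2 (adjusted p = 0.972, edgeR). The smallest section, the third, had the highest Cxcl1 and Cxcl3, and without it both were called lower (-1.25, adjusted p = 0.0281, and -3.11, adjusted p = 0.00225, edgeR; 53.2% of genes passed). Tissue and slide cannot be told apart in this comparison. On the buccal slide 17.0% of Cxcl1, 25.9% of Cxcl3, 48.5% of Cxcl5 and 31.0% of Cxcr2 transcripts reached the quality score, against 76.6% of all gene transcripts.

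In keratinocyte-like cells, present in 6 buccal sections, 69% of genes were called and 3 of the 4 members were. Cxcl3 was lower (log2 fold change -2.68 ± 0.615 SE, adjusted p = 0.00268, edgeR) and so was Cxcl1 (-1.61 ± 0.526 SE, adjusted p = 0.0183, edgeR), while Cxcr2 was higher (1.44 ± 0.439 SE, adjusted p = 0.0131, edgeR). Cxcl5 did not pass (-1.42, adjusted p = 0.158, edgeR). Over all cells the median negative control probe was at 10.1, 40.2 and 32.1 CPM in the Control sections. In the buccal sections it was at 1.40 to 7.46 CPM. The part of this background in the lower ligand levels was not tested. The Cxcl1 value turned to 1.17 (adjusted p = 0.00513, edgeR) when transcripts of any quality were counted, and it was not called without the first female Control section (-1.27, adjusted p = 0.101, edgeR). The Cxcr2 value fell to -0.02 with library size in place of the TMM scaling and to -0.28 with transcripts over the nucleus. With a background of 69% the count of members called is not a result about them.

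Buccal Cxcr2 nevertheless had a clear place in the tissue. Keratinocyte-like cells carried it at 70.7 to 168 CPM (median 94.7 CPM, n = 6), fibroblast-like cells at a median of 3.21 CPM (n = 7), and keratinocyte-like cells held 75.6% to 96.6% of its transcripts. The highest negative control probe in the same cells was at 6.29 to 27.8 CPM. The leading cluster was marked by Sprr3, Krt78, Krt4, Il1f6 and Tgm3, genes of the differentiated layers of a stratified lining, where 5067 buccal cells held 454 Cxcr2 transcripts (171 CPM; highest negative control probe 16.2 CPM) and Cxcl1 stood at 4.90 CPM. The buccal ligands were spread over more classes. The level of Cxcl1 had a median of 142 CPM in fibroblast-like, 105 CPM in endothelial and 102 CPM in macrophage-like cells (n = 7) and of 12.6 CPM in keratinocyte-like cells (n = 6). Fibroblast-like cells held 11.8% to 41.9% of its transcripts and the more numerous keratinocyte-like cells 8.82% to 67.8%. Cxcl5 had a median of 103 CPM in fibroblast-like and 5.19 CPM in keratinocyte-like cells, while Cxcl3 had medians of 0 and 5.23 CPM in these classes. In fibroblast-like cells 35.6% of genes passed, and neither of the 2 members tested there did, by edgeR or by DESeq2, which called 43.8% of genes (0 under an unadjusted p of 0.05; Cxcl1 -0.28, adjusted p = 0.645, and Cxcl5 0.73, adjusted p = 0.583, edgeR).

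Of the pathway lists, the oral sections had 3 of 9 inducers and brakes higher and 2 lower than Control skin over all cells (median log2 fold change -0.19 against 0.12 over the panel), where 38.4% of all genes passed in either direction. The higher genes were Il1f6 (5.34, adjusted p = 0.00481, edgeR) and Il1f8 (4.23, adjusted p = 0.00678, edgeR), epithelial cytokines of the interleukin-36 group, and Cebpb (2.64, adjusted p = 0.029, edgeR), a transcription factor of inflammation and differentiation. Cebpb stood at 1596 to 3774 CPM in the buccal sections, at 1444 CPM in the male Control section and at 87.3 and 84.9 CPM in the female ones, and the female PITX1+ sections were low as well, at 180 and 153 CPM. The lower ones were Il1b (-2.06, adjusted p = 0.0197, edgeR) and the interleukin-1 receptor gene Il1r1 (-1.32, adjusted p = 0.00472, edgeR). Of 7 other chemoattraction genes 5 were lower and 0 higher (median -1.25). They were the CC chemokine genes Ccl3 (-4.67), Ccl4 (-2.97) and Ccl7 (-1.25), the receptor gene Ccr1 (-1.14) and Saa3 (-3.53). Of 5 CXC genes 2 were lower and 0 higher (median -1.28), the scavenging receptor gene Ackr1 (-1.05) and the ligand gene Cxcl16 (adjusted p = 0.00164, edgeR). Of 8 neutrophil genes Chil3 was higher (5.27), though it is also among the 10 leading genes of a keratinocyte-like cluster led by Mt4, Krt4 and Tgm3 and the buccal sections held at most 4 neutrophil-like cells, and Hdc, the histamine-forming enzyme, was lower (-1.53), with a list median of -1.03. The 2 of 8 lay below and the 2 of 5 near the share of all genes, and the differences from it were not tested.

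The wounds asked where the ligands and the receptor lie when neutrophils are present in number. Neutrophil-like cells made up 21.9% of kept cells in the Control wound and 18.6% and 29.0% in the PITX1+ wounds (4001, 7108 and 19441 cells), and the marker list without S100a8 summed to 20984, 24736 and 41314 CPM. There was 1 Control wound, so the wounds were not tested, and intervals cover counting error only. Cxcl1 stood at 574 CPM in the Control wound (537 to 612) and at 2551 (2497 to 2606) and 1919 CPM (1883 to 1957) in the PITX1+ wounds, 4.45 and 3.35 times as much. Cxcl5, at 954 CPM in the Control wound and 3638 and 3003 CPM in the PITX1+ wounds, was 3.82 and 3.15 times as high. Over the whole section Cxcl3 went the other way or stood level, with 2832 CPM in the Control wound and 1578 and 2727 CPM in the PITX1+ wounds. The ratios were 0.557 and 0.963. Beyond 100 µm from the zone of low transcript content described below, Cxcl3 was higher in both PITX1+ wounds, at 791 and 1999 CPM against 529 CPM. Cxcr2 stood at 1030 CPM in the Control wound and at 1501 and 2978 CPM in the PITX1+ wounds, ratios of 1.46 and 2.89. The 2 PITX1+ wounds thus lay on the same side of the Control wound for Cxcl1, Cxcl5 and Cxcr2.

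The source cells of Cxcl1 differed between the wounds. In the Control wound neutrophil-like cells had the highest level, 2870 CPM, and the largest share, 37.9%, while keratinocyte-like cells stood at 161 CPM and fibroblast-like cells at 678 CPM. In the PITX1+ wounds fibroblast-like cells reached 4818 and 2834 CPM and keratinocyte-like cells 2363 and 2049 CPM, and neutrophil-like cells held 8.80% and 14.5% of the transcripts at 2557 and 1524 CPM. Cxcl1 was thus higher in keratinocyte-like and fibroblast-like cells of both PITX1+ wounds than in those of the Control wound, and not in neutrophil-like cells.

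Fibroblast-like cells held the largest share of Cxcl5. They held 49.1% of it in the Control wound and 55.4% and 42.2% in the PITX1+ wounds, at 2600, 11836 and 5522 CPM, and macrophage-like cells held 28.4%, 21.1% and 15.01% at 1478, 4500 and 2467 CPM. In keratinocyte-like cells it stood at 15.7 CPM in the Control wound and at 567 and 1948 CPM in the PITX1+ wounds. Of these cells in the PITX1+ wounds, 12.9% and 31.3% of those with Cxcl5 held Cxcr2, against 5.27% and 8.73% without it. The part of transcripts from neighboring neutrophil-like cells was not tested. In the cluster led by Sprr2d, Aldh1a3 and Arg1, Cxcl5 was at 178 CPM in the Control wound (4 transcripts in 147 cells) and at 4371 CPM in the PITX1+ wounds together (3655 transcripts in 5320 cells). With 60 clusters, a cluster led by the same genes took no class name, with Il1rn, S100a8 and Mmp9 also among its leading genes. Another, led by Sprr1a, Sprr2d and Arg1, was keratinocyte-like. A fibroblast-like cluster led by Timp1, Thbs2, Mmp3 and Tnc, genes of matrix turnover, carried Cxcl5 at 6487 CPM in the Control wound and 9886 CPM in the PITX1+ wounds.

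Cxcl3 was mainly a neutrophil-like transcript. Neutrophil-like cells held 77.5% of it in the Control wound and 57.9% and 51.6% in the PITX1+ wounds, and their level was 28966 CPM in the Control wound against 10403 and 7682 CPM in the PITX1+ wounds. Fibroblast-like cells stood at 109, 180 and 247 CPM, far below the neutrophil-like cells. Keratinocyte-like cells gave 224 CPM in the Control wound and 623 and 1938 CPM in the PITX1+ wounds, and macrophage-like cells 1760, 1374 and 3147 CPM. A macrophage-like cluster led by Mmp12, Ctss, Spp1 and Arg1 was the main myeloid exception, with 5240 CPM over all sections.

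Cxcr2 followed the neutrophil-like cells, at 9494, 9945 and 10578 CPM, with 69.9%, 58.2% and 65.0% of its transcripts. The level in these cells differed less between the 3 wounds than that over the whole section did, which was 1030, 1501 and 2978 CPM. At least 1 Cxcr2 transcript was read in 20.7%, 26.7% and 33.4% of neutrophil-like cells (median depth 19, 29 and 39 transcripts), against 2.94%, 5.51% and 11.1% of keratinocyte-like cells (median depth 99, 110 and 103 transcripts). Transcripts of a cell can be assigned to its neighbor, and the part of that in the keratinocyte-like share was not tested.

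Neutrophil-like cells fell into 3 clusters that differed in the members and in their share of each wound. A cluster led by Ccl3, Ccl4, Tnf and Hdc held 3249 cells in the Control wound and 3166 and 5339 in the PITX1+ wounds, and carried Cxcl3 at 36946, 26121 and 23293 CPM. A cluster led by S100a8, F10 and Mmp9 (482, 2537 and 8259 cells) carried Cxcl3 at 23086, 8613 and 8823 CPM. A cluster led by Mmp9, Timp1 and Sorl1 (270, 1405 and 5843 cells) had Cxcl3 at 2572, 631 and 1326 CPM. The order of the 3 clusters for Cxcl3 was thus the same in each wound, and within each cluster the Control wound was highest. Cxcr2 ranged only from 7523 to 11783 CPM over the clusters and wounds. Cxcl5 was highest in the Mmp9, Timp1 and Sorl1 cluster in each wound, at 6724, 10713 and 4678 CPM, while no cluster was highest for Cxcl1 in all 3 wounds. The depth of the clusters differed too, with medians of 18, 42 and 57 transcripts per cell over all sections, and Timp1 and Mmp3 among the leading genes of the deepest are also fibroblast genes.

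The position of the ligands was set against a zone of low transcript content, found in each wound section. A cell lay in the zone where at least 50% of at least 10 cells within 50 µm had fewer than 10 transcripts. Inside it Cxcl3 stood at 33508, 26611 and 19060 CPM in the Control wound and the PITX1+ wounds, and beyond 100 µm from it at 529, 791 and 1999 CPM. Cxcl1 had a different profile, with 3545, 2770 and 2817 CPM inside and 364, 2646 and 1988 CPM beyond 100 µm. Of its transcripts 56.7% in the Control wound and 92.6% and 88.9% in the PITX1+ wounds lay beyond 100 µm. In the Control wound neutrophil-like cells held 57.4% of Cxcl1 in the zone or within 500 µm of it and 7.87% farther away, where fibroblast-like cells held 44.1% and macrophage-like cells 28.9%. In the PITX1+ wounds they held 14.95% and 14.97% within that distance and 3.59% and 11.3% beyond it. Cxcl5 was lower inside than beyond 100 µm in the PITX1+ wounds, at 1010 and 928 CPM against 3845 and 3207 CPM. In the Control wound it stood at 1129 CPM inside and 972 CPM beyond 100 µm, but was not level between. There it was 638 CPM up to 100 µm, 341 CPM at 100 to 500 µm and 1579 CPM at 500 to 1000 µm. Cxcr2 stood at 6772, 6006 and 6308 CPM inside and at 544, 1369 and 2946 CPM beyond 100 µm. The levels inside the zone were therefore alike for Cxcl1, Cxcl5 and Cxcr2, and the wounds differed mainly outside it. For Cxcl3 the Control wound was highest inside the zone and lowest beyond 100 µm.

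**Figure D3:**
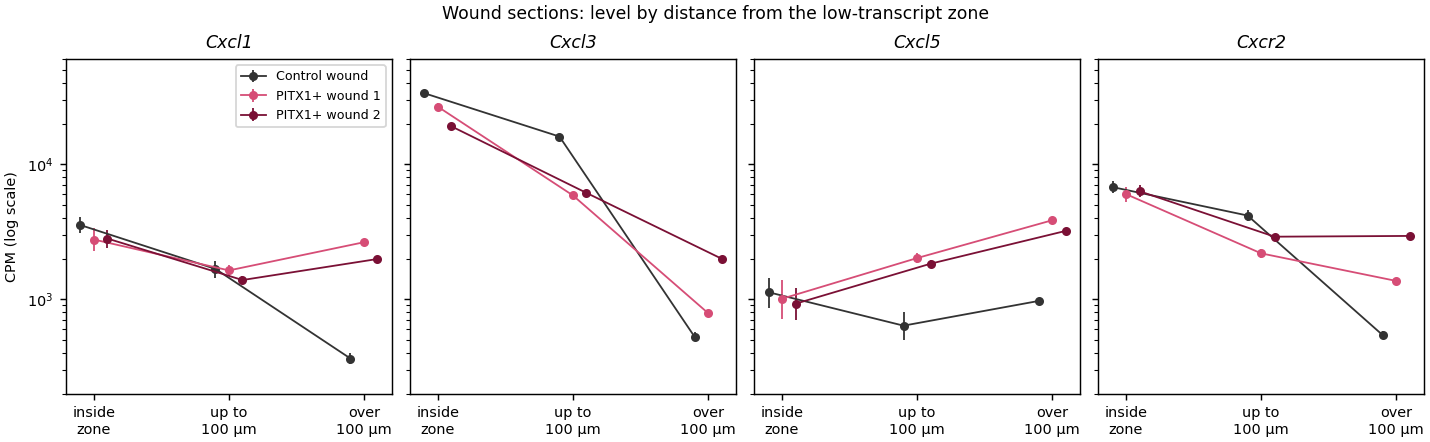
Level of each member in the 3 wounds inside the low-transcript zone, up to 100 µm from it and over 100 µm from it, in CPM on a log axis. Cxcl3 falls steeply away from the zone in every wound, while Cxcl1 falls from 3545 to 364 CPM in the Control wound and stays near 2000 CPM or above over 100 µm away in the PITX1+ wounds.

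Along the length of the wounds the flanks were unequal. In bins of 1 mm along the slide, counting those with at least 500 cells, the middle of a wound was taken as the pair of bins with at most 6 keratinocyte-like cells and the flanks as the others, a division made after the values were seen. In the first PITX1+ wound Cxcl1 stood at 8138, 4889, 3165, 1438 and 1784 CPM from the top of its upper flank to the middle and at 1501, 499 and 47.5 CPM from the middle down its lower flank. Pitx1 in keratinocyte-like cells was at 490 to 720 CPM in the upper bins and at 1036, 629 and 416 CPM in the lower ones. Neutrophil-like cells made up 13.9%, 20.4%, 9.71%, 4.97% and 30.4% of cells in the upper bins and 37.0%, 1.03% and 0.478% in the lower ones. The bin next to the middle was thus alike on either side, and the bins beyond it were not.

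In the second PITX1+ wound the order was turned, with Cxcl1 at 61.1, 185 and 829.3 CPM down the upper flank and at 1009, 1456, 3135, 2438, 2903 and 1979 CPM down the lower flank. Pitx1 there was at 229, 481 and 880 CPM in the upper bins and at 202 to 404 CPM in the lower ones. In the Control wound Cxcl1 stood at 47.7, 114 and 554 CPM down the upper flank and at 809, 480 and 121 CPM down the lower flank, around a peak of 4057 CPM in a bin where 86.6% of cells were neutrophil-like. Beyond the bin next to the middle, Cxcl1 was at 1438 CPM or more in the bins of 1 flank of each PITX1+ wound, and at 499 CPM or less in those of the other flank and of both flanks of the Control wound.

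**Figure D4:**
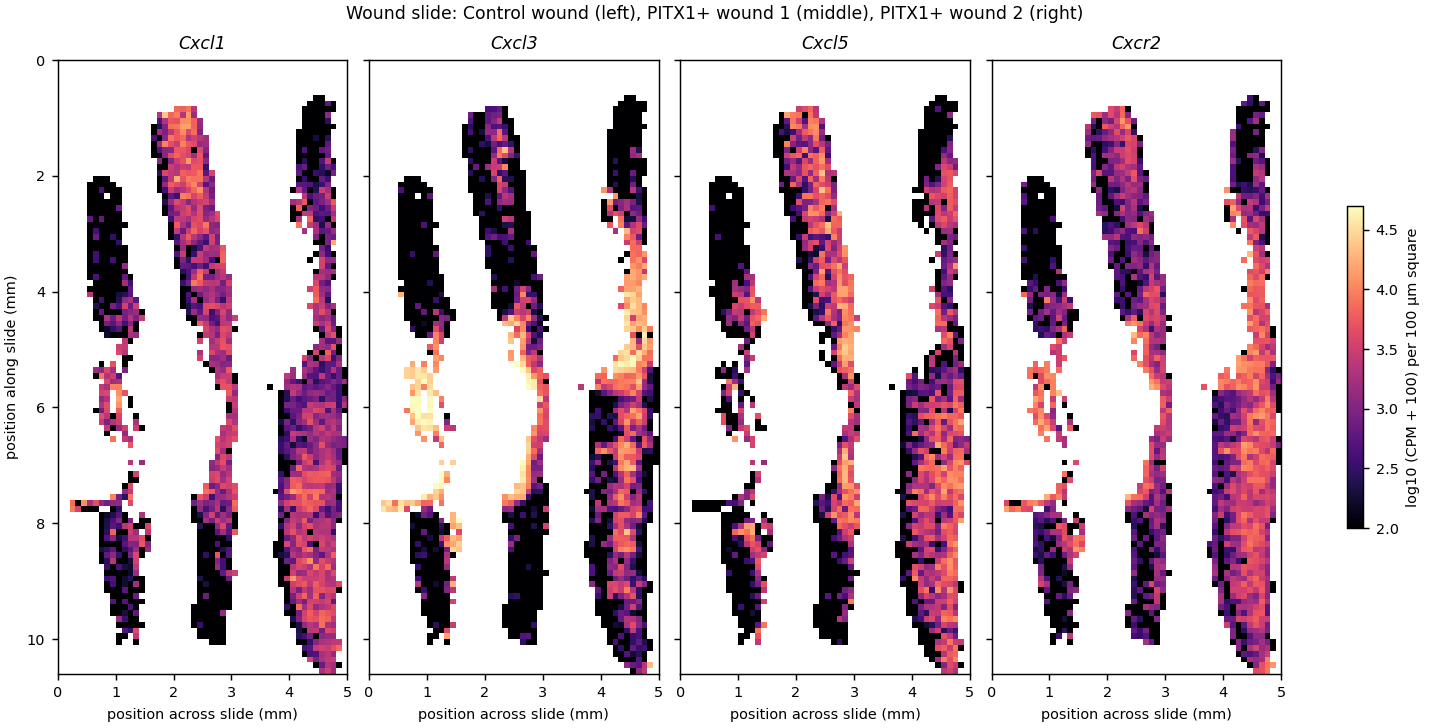
Map of the wound slide in 100 µm squares, with both axes in mm and color as log10 of the level plus 100 CPM for each member; the Control wound is on the left, the first PITX1+ wound in the middle and the second on the right. Cxcl3 is brightest in the middle of each wound, whereas Cxcl1 and Cxcl5 extend along the upper flank of the first and the lower flank of the second PITX1+ wound.

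Some ligands were read in a larger share of the cells with another ligand than of the cells without it. In fibroblast-like cells of the wounds Cxcl1 was found in 19.5%, 41.1% and 25.3% of cells with Cxcl5 and in 2.15%, 10.8% and 9.16% of cells without it. The cells with Cxcl5 were also deeper, with medians of 97, 121 and 99 transcripts against 84, 64 and 67. In keratinocyte-like cells of the PITX1+ wounds Cxcl5 was found in 37.4% and 50% of cells with Cxcl3 and in 1.72% and 5.31% of cells without it. Cxcr2 was found in 18.1% and 32.7% of these cells with Cxcl3 and in 4.98% and 8.26% of those without it. The pair of Cxcl3 and Cxcl5 is followed next in other classes. This pair went the other way in neutrophil-like cells, where Cxcl5 was found in 2.25%, 4.68% and 6.55% of cells with Cxcl3 and in 3.72%, 12.2% and 9.16% of cells without it. In macrophage-like cells the shares were 9.13%, 13.2% and 6.35% with Cxcl3 and 7.51%, 17.0% and 12.4% without it. In neutrophil-like cells the receptor went with Cxcl5, being found in 36.1%, 48.3% and 50.2% of those with it and in 20.2%, 24.3% and 31.8% of those without it. The cells with Cxcl5 were deeper here as well, with medians of 65, 68 and 69 transcripts against 18, 26 and 36, and the part of depth was not tested. For Cxcl1 the shares were 23.3%, 38.9% and 36.0% with it and 20.6%, 25.8% and 33.2% without it. For Cxcl3 they were 21.7%, 19.7% and 32.3% with it and 19.9%, 29.0% and 33.7% without it, so the wounds did not share a direction.

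The distance between source and receptor was measured in each section with at least 20 cells carrying Cxcr2. The ligand level in cells within 50 µm of a Cxcr2 cell was divided by the level farther away, leaving the Cxcr2 cells out and adding 0.5 transcripts to each side. Neutrophil-like cells in which no Cxcr2 was read stayed among the cells counted. The wound ratios therefore include neutrophil-like cells lying near one another. In the first male PITX1+ section Cxcl1 stood at 2379 CPM near and 804 CPM far. The log2 ratio of Cxcl1 was 1.56 and 1.33 in the male PITX1+ sections, 0.48 and 0.55 in the female PITX1+ sections, -0.30 and -0.77 in the female Control sections, and 2.00, 1.41 and 2.05 in the wounds. The female Control values rest on 25 and 6 transcripts near cells with a single Cxcr2 transcript, in sections where neither gene could be separated from background. In the second male PITX1+ section Cxcr2 was not separated from background either. In the female PITX1+ sections 19 of 692 and 18 of 681 Cxcr2 cells held 2 or more Cxcr2 transcripts. The part of background calls among these cells was not tested. The Cxcl1 ratio ran from -1.65 to -0.72 in the 6 buccal sections, where keratinocyte-like cells held most Cxcr2 transcripts and Cxcl1 had a higher level in fibroblast-like than in keratinocyte-like cells. Over all 15 sections the mean was 0.07 ± 1.34 (SD, 7 of 15 above 0; exact sign-flip permutation test, two-sided, adjusted p = 0.903), so no common direction was found. By this measure per transcript the tissues differed in sign. Per cell Cxcl1 was higher near in the second buccal section, with 11 transcripts in 2849 near cells and 22 in 7885 far cells. It was also higher near in the fifth and seventh buccal sections, and lower near in the other buccal ones. Counted as transcripts per cell the mean was 0.66 (10 of 15 above 0; exact permutation, adjusted p = 0.0939), and around cells with at least 2 Cxcr2 transcripts it was 1.42 (5 of 5 above 0; exact permutation, p = 0.0625, the smallest that 5 sections can give).

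Cxcl3 and Cxcl5 also had ratios above 0 in the wounds and the PITX1+ sections. Those of the second male PITX1+ section rest on 13 and 8 near transcripts, at levels not separated from background. Cxcl3 in the first male PITX1+ section was not separated from background either. The log2 ratio of Cxcl3 was 4.43, 2.16 and 3.90 in the wounds and 1.40, 1.56, 0.05 and 0.21 in the PITX1+ sections, and 0.03 and -0.03 in the female Control sections. Over 10 sections its mean was 0.85 (8 of 10 above 0; exact sign-flip permutation test, adjusted p = 0.902). A single buccal section, the fourth, had 0 transcripts near and 25 far, a level at least 6.19-fold higher far by a floor of 3 counts near, and without it the mean was 1.52 (exact permutation, adjusted p = 0.0234). The log2 ratio of Cxcl5 was 3.15, 1.51 and 2.95 in the wounds and 1.44, 1.87, 0.22 and 0.22 in the PITX1+ sections. It was -0.06 and -0.61 in the female Control sections and -3.79 to 0.26 in 5 buccal sections. The mean was 0.07 over 14 sections (8 of 14 above 0; exact sign-flip permutation test, adjusted p = 0.903). When neutrophil-like cells took the place of Cxcr2 cells, a setting added after the data were seen, all 7 sections with enough of them had each ligand higher near them. Neutrophil-like cells were left out of the counts there, and the Cxcl3 ratios in the wounds were 4.79, 2.20 and 4.55. The means were 2.36, 2.79 and 3.05 for Cxcl1, Cxcl3 and Cxcl5 (exact sign-flip permutation test, two-sided, p = 0.0156, the smallest that 7 sections can give). In the second male PITX1+ section, with 31 neutrophil-like cells, Cxcl3 and Cxcl5 rest on 7 and 9 near transcripts, at levels not separated from background. Cxcl3 in the first male PITX1+ section was not separated from background here either.

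Cells with a ligand were also compared with cells of the same class without it by their distance to the nearest Cxcr2 cell. Regardless of class, the median in the first male PITX1+ section was 55.8 µm for Cxcl1 cells and 96.2 µm for all cells without it, and in the Control wound 19.5 and 43.1 µm. Taken within classes, the differences there were -0.72 and -0.71 on the log2 scale. Over all sections Cxcl1 cells lay closer within classes by -0.26 on the log2 scale on average, 16.4% less (closer in 11 of 15 sections; exact sign-flip permutation test, adjusted p = 0.0313). Cxcl5 cells did so by -0.41 (closer in 10 of 14 sections; exact sign-flip permutation test, adjusted p = 0.00806) and Cxcl3 cells by -0.15, which did not pass (7 of 9 sections; exact sign-flip permutation test, adjusted p = 0.082). The female Control sections, at 0.23 and 0.43 for Cxcl1, rest on levels not separated from background, and without either of them the Cxcl1 call held (exact permutation, adjusted p = 0.0185 and 0.00915). In the second male PITX1+ section, at -0.74 for Cxcl1, Cxcr2 was not separated from background either. Without that section the Cxcl1 call held (exact permutation, adjusted p = 0.0411). The part of background calls among the Cxcr2 cells of the female PITX1+ sections was not tested. The Cxcl1 call was lost without the first male PITX1+ section, the seventh buccal section or any of the 3 wounds (exact permutation, adjusted p = 0.0557 to 0.0615), and that for Cxcl5 held without each section in turn. In the unwounded sections alone neither passed (exact permutation, adjusted p = 0.211 for Cxcl1 and 0.0645 for Cxcl5), and against all other cells Cxcl1 did not (exact permutation, adjusted p = 0.112) while Cxcl5 and Cxcl3 did (both adjusted p = 0.0143, exact permutation).

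Across the 45 cell clusters the members kept different company. These correlations of log2(CPM + 10) describe clusters that share libraries and depth, and carry no test. Cxcl1 was most like Cxcl5 (Pearson r = 0.863), Csf3, the gene of the growth factor for granulocytes (0.839), and Mmp9 (0.835). Cxcl3 was most like the CC chemokine genes Ccl3 (0.971) and Ccl4 (0.942) and the myeloid receptor gene Trem1 (0.913). Cxcl5 was most like Saa3 (0.884), Mmp9 (0.878) and Timp1 (0.877), and Cxcr2 most like Il1b (0.942), Ccr1 (0.889) and F10 (0.878). Among the members themselves r was 0.855 for Cxcl3 and Cxcr2, 0.763 for Cxcl5 and Cxcr2, 0.683 for Cxcl1 and Cxcl3 and 0.642 for Cxcl1 and Cxcr2.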

How the data were processed

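The authors deposited, for each Xenium slide, a table of decoded transcripts with a quality score, a position (another quantity, in µm), a nucleus mark and the assigned cell, and a table of counts of transcripts per cell, without normalization. Instrument software and segmentation settings are not given in the sources used here. Only transcripts scored 20 or higher were used, and their sums equalled the deposited counts in 100% of cells. Sections were cells chained within 100 µm (wounds 200 µm) with at least 2000 cells. Section conditions follow position: the skin sections' cell numbers lay within 0.4928% of totals listed for their own condition.

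Cells with at least 10 transcripts were clustered without the compared genes (k-means, 45 clusters on 40 principal components, scikit-learn 1.9.0). A cluster took a class name from markers among its 10 leading genes, with at least 4 markers raised 1.5-fold and read in at least 10% of cells. This rule was set after the clusters were seen. No doublets were removed. Counts were summed per section and tested with edgeR 4.0.16 in R 4.3.3 (glmQLFit, glmQLFTest, TMM, slide as a term for PITX1+ against Control, Benjamini-Hochberg adjustment over all genes tested, threshold 0.05), and with DESeq2 1.42.0. Spatial values were tested over sections by exact sign flips (Python 3.11.15, scipy 1.17.1), adjusted over the 3 ligands. Intervals are exact Poisson or binomial at 95% and cover counting error only. The scripts were tested on simulated data. Genes named with results are the 4 members, the 3 panel genes most like each over clusters, and called members of 4 fixed lists. Others are named as leading genes of clusters, as examples of a list or, for Pitx1, as a check of the conditions. Members and lists were chosen with earlier results of these data known. The alternatives tried were DESeq2, scaling by library size alone, no filter on low counts, any quality, nuclear transcripts, cell filters of 0 and 20 transcripts, 30 and 60 clusters, no slide term, each section left out, other distances and transcript minimums, and unwounded sections alone.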

Additional observations from a re-analysis of the deposited data

Results flagged for a closer look

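Among the 7 buccal sections the third stood apart with the highest Cxcl1 (201.4 CPM) and the highest Cxcl3 (126.8 CPM), each far from the nearest other section relative to the range of the group. It was the smallest section, with 134076 kept transcripts, and held no keratinocyte-like cells. Chance alone makes some such gaps when many groups are screened, and the part of the section's size or makeup in them was not tested.

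The Cxcl1 level near Cxcr2 cells over that farther away was above 1 in all 4 PITX1+ sections (median 0.939 on the log2 scale) and below 1 in all 6 buccal sections measured (median -1.193). The difference between these groups was not tested, and tissue and slide cannot be told apart in it. In the second male PITX1+ section Cxcr2 was not separated from background. The part of background calls among the Cxcr2 cells of the female PITX1+ sections was not tested.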

How the results depend on the processing

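No paired analysis was possible because each label holds replicate 1 only and sections of a slide carry no shared number. The number of members called in PITX1+ against Control skin, 0 by edgeR with TMM, became 1 with DESeq2 over all cells, in keratinocyte-like and in fibroblast-like cells, 1 with any quality in keratinocyte-like cells and 1 with library size in fibroblast-like cells, each time Cxcl1, and ranged from 0 to 1 when sections were left out in turn. In buccal mucosa it became 1 with any quality (Cxcl3) and 1 with nuclear transcripts (Cxcr2) over all cells, 1 in place of 3 with nuclear transcripts in keratinocyte-like cells and 2 without the filter on low counts in fibroblast-like cells, where Cxcl3 and Cxcr2 entered the test. With a section left out it ranged from 0 to 2 over all cells and from 2 to 3 in keratinocyte-like cells. The causes were not tested.

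Values that turned sign, on the log2 scale, were mostly small. In PITX1+ skin Cxcl5 and Cxcr2 turned with any quality over all cells (-0.145 and -0.0953) and in keratinocyte-like cells (-0.315 and -0.158), and with nuclear transcripts in keratinocyte-like cells (-0.500 and -0.194). Cxcl5 in keratinocyte-like cells also turned with library size (-0.0945), DESeq2 (-0.000778), at least 20 transcripts per cell (-0.00296), no slide term (-0.226) and 60 clusters (-0.100). In fibroblast-like cells Cxcr2 turned with library size (0.185), 30 clusters (0.111) and 60 clusters (0.0953), and Cxcl3 with nuclear transcripts (0.234). In buccal mucosa Cxcl1 turned with any quality over all cells (0.253), in keratinocyte-like cells (1.17) and in fibroblast-like cells (0.00791), and with library size in fibroblast-like cells (0.0986). Buccal Cxcr2 turned with DESeq2 (0.0244) and any quality (0.480) over all cells, and with library size (-0.0236) and nuclear transcripts (-0.279) in keratinocyte-like cells. With sections left out, values that turned ranged from -0.872 to 0.0679 for Cxcl3 over all cells of PITX1+ skin, from -0.865 to 0.116 for Cxcl3, from -0.219 to 0.391 for Cxcl5 and from -0.172 to 0.574 for Cxcr2 in its keratinocyte-like cells, from -1.35 to 0.150 for Cxcl3 and from -0.420 to 0.187 for Cxcr2 in its fibroblast-like cells, and from -0.367 to 0.343 for Cxcr2 over all buccal cells.

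Ligand levels near Cxcr2 cells turned within 25 µm for Cxcl1 (-0.171) and Cxcl5 (-0.228) and in unwounded sections alone for Cxcl1 (-0.373), Cxcl3 (-0.288) and Cxcl5 (-0.600). They were higher than the main values per cell (0.663, 1.135 and 0.593), within 100 µm (0.406, 1.143 and 1.134) and with at least 2 Cxcr2 transcripts (1.418, 1.360 and 1.582), none of which passed. Near neutrophil-like cells, a setting added after the data were seen, they were 2.36, 2.79 and 3.05. With the near level of 0 in the fourth buccal section set to 3 counts, also added later, the Cxcl3 mean was 1.11 (exact permutation, p = 0.129). With a section left out they ranged from -0.0758 to 0.188, from 0.450 to 1.52 and from -0.164 to 0.369. The distance of Cxcl1 cells no longer passed with at least 2 Cxcr2 transcripts (-0.763), against all other cells (-0.220) and in unwounded sections alone (-0.167), and that of Cxcl5 cells with at least 2 Cxcr2 transcripts (-0.612), at least 2 ligand transcripts (-1.001) and in unwounded sections alone (-0.272), while Cxcl3 passed against all other cells (-0.515). With at least 2 Cxcr2 transcripts (Cxcl1, Cxcl5) or 2 ligand transcripts (Cxcl5) there were 5 sections, where the smallest p is 0.0625, so these could not pass; Cxcl1 cells were closer in 5 of 5. With a section left out they ranged from -0.308 to -0.224 for Cxcl1, from -0.197 to -0.111 for Cxcl3, which passed without the second male PITX1+ section, and from -0.454 to -0.321 for Cxcl5.

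The number of panel genes called over all cells of PITX1+ skin, 67, was 100 with DESeq2 and 8 without the slide term, and it ranged from 14 to 83 with a section left out. With a section left out it ranged from 37 to 110 in keratinocyte-like, 14 to 50 in fibroblast-like and 0 to 30 in immune-like cells, and in buccal mucosa from 75 to 174 over all cells (126 with all sections) and from 54 to 162 in fibroblast-like cells (100). In keratinocyte-like cells it went from 98 to 188 with DESeq2, 156 with any quality and 32 without the slide term, in fibroblast-like cells from 43 to 26 with 30 clusters and 0 without the slide term, and in immune-like cells from 3 to between 0 and 26 over the settings with all sections. Depth limits the Control and buccal sections most, with 7 to 149 and 1 to 147 transcripts per member.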
